A study of Mus musculus with 207 samples.

Results

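Hypothalamus RNA of C57BL/6 mice fed WPI-30_FAT-40 (11 libraries) was compared with that of mice fed WPI-30_FAT-20 (11 libraries), gene by gene. These 22 libraries, chosen by their tissue and treatment labels alone, are among 67 from hypothalamus and 207 in the whole series, which also sampled jejunum and liver. The labels name the diets by a protein source (CAS or WPI), a protein level of 30 that every group shares, and a fat level of 20, 40 or 55. CAS and WPI usually stand for casein and whey protein isolate in diet studies, but the labels do not spell them out and give no unit for the levels. The groups set beside the comparison are CAS-30_FAT-20 (10 libraries), CAS-30_FAT-40 (12) and WPI-30_FAT-55 (12). No genotype, age, sex, feeding time or time of sampling was labelled, and each library carried the identifier of 1 mouse. The question, as far as the title of the study gives it, is how the protein of the diet alters the effect of dietary fat.

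The hypothalamus is the brain region that governs feeding, energy use, body temperature, stress and reproduction. In its arcuate nucleus, neurons that make AgRP and NPY drive feeding and neurons that make POMC and CART restrain it, and both read leptin from fat tissue and insulin from the pancreas. Neurons of other nuclei release oxytocin and vasopressin into the blood, or send CRH and TRH to the pituitary. The tissue also holds astrocytes, microglia, oligodendrocytes, ependymal cells called tanycytes, and vessels, and in bulk RNA fewer cells of a type and less RNA per cell cannot be told apart.

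The values are reads per gene divided by 1 size factor per library, and the reads recovered from them came to 14.4 to 16.1 M per WPI library. The neurosecretory genes that define the tissue were present in all 22 libraries, but 1 library differed: in WPI FAT-40 replicate 11, Oxt stood at 252 against 2592 to 7542 in the other 21, Pomc at 57.6 and Avp at 1016, while Camk2a, a kinase gene high in cortex, was at its highest value of 25058. Replicate 8 of WPI FAT-40 stood apart in intestinal transcripts, described at the end. Libraries of 1 diet whose mouse identifiers differ only in the last digit are called a stem here; each group has 4 stems, and the labels do not say what a stem is. Nothing says that the libraries of a group came from separate cages or days, so p-values measure the spread between these libraries.

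A larger set of libraries stood apart in the share of reads on ribosomal protein genes, and the cut at 2% was chosen after seeing the data. Genes of cytosolic ribosomal proteins took 2.39% to 6.83% of reads in 6 of the 11 WPI FAT-20 libraries (replicates 1, 3, 4, 5, 6 and 7) and 1.19% to 1.73% in the other 16 of the 22. The median was 2.39% in WPI FAT-20 and 1.33% in WPI FAT-40, where no library exceeded 1.71%. Over all 67 libraries 12 passed 2%, among them 4 of CAS FAT-20 and 2 of WPI FAT-55. The first principal component of the 22 libraries held 55.8% of their variance and ran from -119 to 33.1, with the 5 lowest scores in WPI FAT-20 replicates 3, 5, 4, 6 and 1. The high shares ran together by stem: all 3 libraries of 1 WPI FAT-20 stem (replicates 4 to 6) and all 3 of 1 CAS FAT-20 stem (replicates 5 to 7) were over 2%, and none of WPI FAT-20 replicates 9 to 11. The correlation within stems, estimated over all genes, was 0.34, and no label says what the stems are. Results are given with all 22 libraries and again without these 6 (11 against 5), which were picked by this measured share and not by a label.

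**Figure D1:**
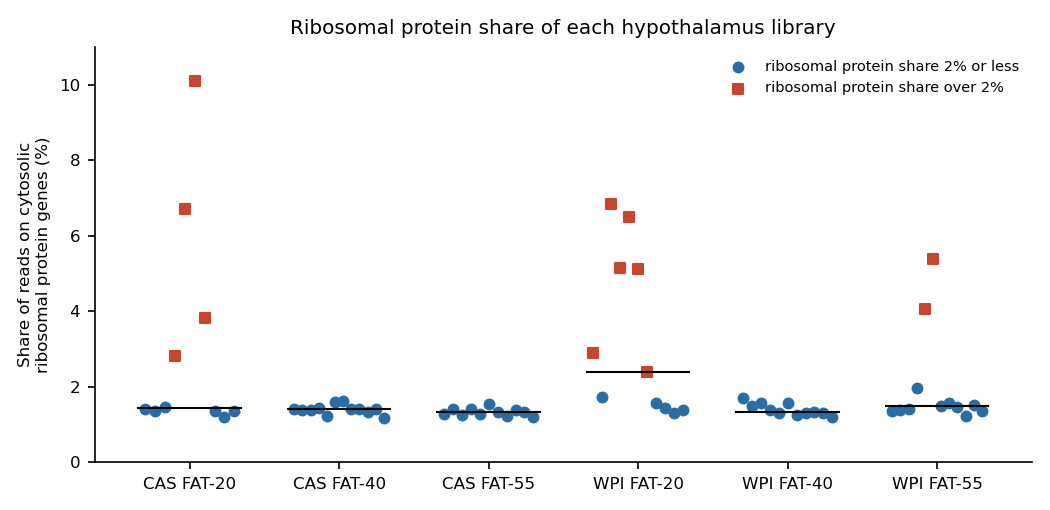
Share of reads on cytosolic ribosomal protein genes (percent) in each of the 67 hypothalamus libraries, by diet group, with the group median as a line; squares mark the 12 libraries over 2%. The 6 squares of WPI FAT-20 lie at 2.39% to 6.83% and all 11 WPI FAT-40 libraries lie at 1.71% or below.

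The windows before the start sites of 3 of the named genes are shown as background, and no result rests on them. The window before the start site is shown for Jun, an immediate early transcription factor, Syn1, a synaptic vesicle protein of neurons, and Fabp1, the fatty acid binding protein of liver and gut. They are RefSeq sequences on GRCm38.p6, 5′ to 3′ along the gene's strand, each of 270 bases that end 20 bases past the listed start. Capitals mark the motifs searched on both strands. In Jun (window chr4:95052203-95052472, minus strand) they mark TGACATCA, an AP-1 or CRE-like element.
Jun: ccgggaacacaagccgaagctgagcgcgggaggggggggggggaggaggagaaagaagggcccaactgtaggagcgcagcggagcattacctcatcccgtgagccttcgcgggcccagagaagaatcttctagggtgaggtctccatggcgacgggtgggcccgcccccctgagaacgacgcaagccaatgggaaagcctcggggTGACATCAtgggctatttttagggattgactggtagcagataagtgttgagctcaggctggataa
In Syn1 (chrX:20920899-20921168, minus strand) they mark TTCAGCACC, the left part of the element bound by the repressor REST, and TGACGTCA, the cAMP response element.
Syn1: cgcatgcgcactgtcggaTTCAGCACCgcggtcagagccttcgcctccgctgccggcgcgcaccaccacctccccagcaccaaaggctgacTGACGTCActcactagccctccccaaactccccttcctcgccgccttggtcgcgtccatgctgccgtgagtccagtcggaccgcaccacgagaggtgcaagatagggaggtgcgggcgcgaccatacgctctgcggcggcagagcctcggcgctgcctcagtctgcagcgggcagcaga
In Fabp1 (chr6:71199629-71199898, plus strand) they mark TATAAA.
Fabp1: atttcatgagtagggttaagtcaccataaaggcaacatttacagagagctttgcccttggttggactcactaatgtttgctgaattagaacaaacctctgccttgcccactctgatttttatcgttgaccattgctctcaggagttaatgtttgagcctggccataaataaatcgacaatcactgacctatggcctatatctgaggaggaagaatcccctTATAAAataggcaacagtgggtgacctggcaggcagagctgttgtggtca
TGACATCA began 45 bases before the Jun start and TATAAA 30 bases before the Fabp1 start. In Syn1, TTCAGCACC began 232 bases and TGACGTCA 159 bases before the start. Of 32851 RefSeq promoter windows of this length, 3.46% held TGACATCA, 1.73% TGACGTCA, 0.326% TTCAGCACC and 12.9% TATAAA. A match is a string of letters in a window and says nothing of binding.

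With all 22 libraries, 52.5% of the genes tested differed between the diets. Of these, 5630 of 14830 genes were higher in WPI FAT-40 (38% of those tested) and 2161 were lower (14.6%), at an adjusted p under 0.05 in limma. The median log2 fold change of all genes was 0.12, and changes are read against that shift. Ion channels, synaptic scaffolds and chromatin factors were mostly higher, and ribosomal proteins, respiratory chain and proteasome subunits were mostly lower. Where a list is described below, its median is the median log2 fold change of its tested genes. For most genes the log2 fold change is followed by its value without the 6 libraries. Without the 6 libraries, 30 genes were higher and 0 lower (0.202%), while 1316 were higher and 33 lower at an unadjusted p under 0.05. Without WPI FAT-20 replicates 1 to 6 (2 whole stems), 38 were higher and 0 lower (0.256%), with 1498 and 41 at an unadjusted p under 0.05. Of the 7791 genes called with all libraries, 29 were still called without the 6, in a comparison that shares the other 16 libraries.

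The balance of higher and lower genes depended on the scaling. Higher genes were 72.3% of the calls on the deposited scale, 55.2% with each library centred on its median (4010 higher and 3261 lower, 49% of genes called), 54.4% with TMM, and 42.8% with the edgeR quasi-likelihood test on the recovered reads (2744 higher, 3674 lower). The groups of 11 and 11 did not overlap for 55 genes, all higher in WPI FAT-40 (0.371% of genes tested, 0 lower). Overlap, here and for the genes named below, was judged on the deposited scale alone. On that scale the median log2 fold change of all genes was 0.12, which favours separation upward. Overlap was not counted with libraries centred or with TMM. Leaving out all 12 libraries over 2%, in every diet, gave 497 higher (3.35%) and 1 lower (0.00674%), 3.36% in all. The WPI estimates are those without the 6 (median of all genes 0.092 in both fits), and only the spread pooled over the diets differs. Adjusted p-values without the 6 thus still carry the spread of libraries over 2% in other diets. Centring the remaining libraries as well gave 18 higher (0.121%) and 1 lower (0.00674%). With values averaged per stem (4 against 4), 25 genes were higher and 0 lower.

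Rps19, a subunit of the small ribosomal subunit encoded at chr7:24884371-24889806 (GRCm38), had values of 1979 to 26494 (median 6079) in WPI FAT-20 and 1816 to 2785 (median 2044) in WPI FAT-40. The 6 WPI FAT-20 libraries lay at 6079 to 26494, above every WPI FAT-40 library, and the other 5 at 1979 to 2656, within their range. Rps19 was lower in WPI FAT-40 with all libraries (log2 fold change -1.53 ± 0.45 (SE), adjusted p = 0.00533), and without the 6 its value was -0.10, adjusted p = 0.969. Syn1 (chrX:20860511-20921004) went the other way, with 2006 to 8331 (median 6820) in WPI FAT-20 and 7199 to 9270.2 (median 8302) in WPI FAT-40. The 5 lowest Syn1 values were those of WPI FAT-20 replicates 3, 4, 5, 1 and 6, while replicate 7, also over 2%, stood at 7445, and the groups overlapped. With all libraries it rose (log2 fold change 0.64 ± 0.16 (SE), adjusted p = 0.00206), and its value was 0.13, adjusted p = 0.845 without the 6.

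Jun (chr4:95049034-95052222) had values of 509.7 to 857 (median 719) in WPI FAT-20 and 786 to 1388 (median 934) in WPI FAT-40. All 11 WPI FAT-40 libraries lay above the WPI FAT-20 median and 9 above the highest WPI FAT-20 library, and the 5 lowest values were those of WPI FAT-20 replicates 5, 3, 4, 6 and 1. Jun rose in WPI FAT-40 (log2 fold change 0.54 ± 0.092 (SE), adjusted p = 8.09e-05), and without the 6 libraries the difference was 0.35, adjusted p = 0.255. Leaving out all 12 libraries over 2% gave 0.35 again with an adjusted p of 0.0302, and 0.26 (adjusted p = 0.592) once these were centred.

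**Figure D2:**
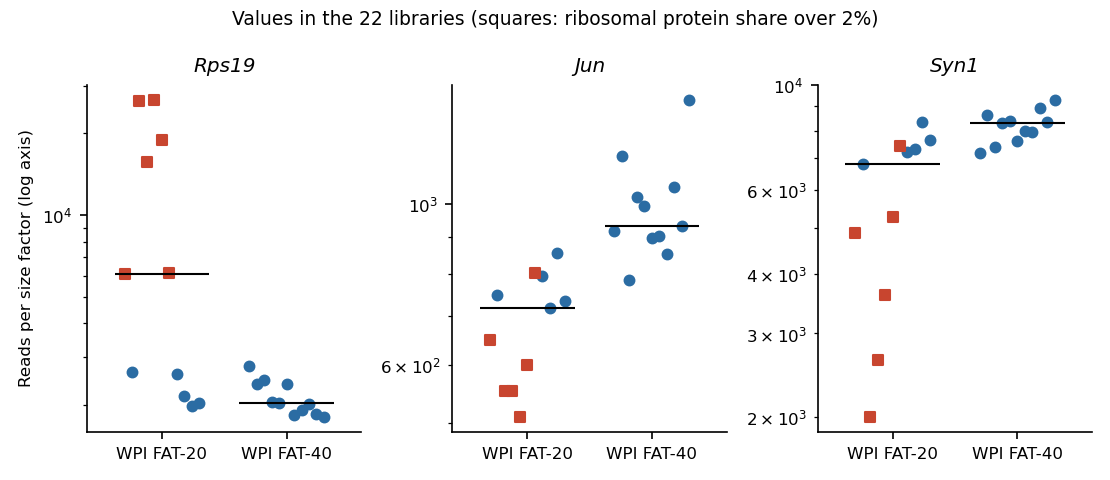
Reads per size factor (log axis) of Rps19, Jun and Syn1 in the 11 WPI FAT-20 and 11 WPI FAT-40 libraries, with medians as lines; squares are the 6 WPI FAT-20 libraries over 2% ribosomal protein reads. The squares hold the highest Rps19 values, 6079 to 26494, and the 5 lowest Syn1 and Jun values.

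Genes of the machinery that makes and breaks down protein were mostly lower in WPI FAT-40 with all libraries. Of the cytosolic ribosomal proteins, 0 of 78 were higher and 77 lower (median -0.94, and -0.0021 without the 6), against 14.6% lower among all genes. With each library centred on its median, the list had 0 higher and 77 lower, against 22% lower among all genes in that fit. The 6 libraries were picked by the reads on this same list, so its value without them, and those of its genes Rps19, Rps3a1, Rpl34 and Rpl35, had to move toward 0 and are no independent check. Rps3a1, a protein of the small subunit, had values of 4159.7 to 55860.5 (median 12402) in WPI FAT-20 and 3976 to 5854 (median 4233) in WPI FAT-40. Rpl34, of the large subunit, had values of 1222 to 10580.4 (median 2870.1) in WPI FAT-20 and 1034 to 1741 (median 1296) in WPI FAT-40. For Rps3a1 the log2 fold change was -1.45, adjusted p = 0.00595, and -0.03, adjusted p = 0.993, without the 6. For Rpl34 it was -1.32, adjusted p = 0.00346, and -0.16, adjusted p = 0.941, without the 6. Ribosomal protein genes have many processed pseudogenes, and how the authors' counting shared reads among the copies is not given in the sources used here. Of the translation factors, 6 of 32 were higher and 22 lower (median -0.47, and 0.073 without the 6). Eif3a, the largest eIF3 subunit, was among the higher ones (0.50, adjusted p = 7.72e-04, and 0.13, adjusted p = 0.705, without the 6).

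Nuclear genes of the respiratory chain and the proteasome were mostly lower as well, against 38% higher and 14.6% lower among all genes. Of the respiratory chain subunits, 0 of 75 were higher and 67 lower (median -0.69, and 0.052 without the 6). Cox4i1, a subunit of cytochrome c oxidase, had values of 3536 to 19895 (median 6280.3) in WPI FAT-20 and 3264 to 4968 (median 3857) in WPI FAT-40. It was lower (log2 fold change -0.90 ± 0.26 (SE), adjusted p = 0.00538; -0.032, adjusted p = 0.984 without the 6). For Ndufa4, another small subunit of the chain, the log2 fold change was -1.28, adjusted p = 0.00552, and -0.062, adjusted p = 0.976, without the 6. For Uqcrq, of complex III, it was -1.19, adjusted p = 0.00508, and -0.067, adjusted p = 0.972, without the 6. Of the proteasome subunits, 2 of 31 were higher and 27 lower (median -0.56, and 0.051 without the 6). Psma2 and Psmb3, subunits of the core particle, were lower (-1.19, adjusted p = 0.00512; -0.87, adjusted p = 0.00482), and Psmd2, a large subunit of the regulatory particle, was higher (0.19, adjusted p = 0.00192). None of the 3 passed without the 6 libraries (-0.00029, -0.037 and 0.10). The mRNAs encoded by mitochondrial DNA had 3 of 11 lower and 0 higher.

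Among called genes with a mean of at least 100 in the 22 libraries, the largest negative changes included Tmsb4x, an actin-binding peptide (-1.46, adjusted p = 0.0093, and 0.038, adjusted p = 0.99, without the 6). Pfdn5, a subunit of the prefoldin chaperone, gave -1.37, adjusted p = 0.00588, and -0.019, adjusted p = 0.995, without the 6. Atp5md, a small subunit of ATP synthase, gave -1.51, adjusted p = 0.00467, and -0.15, adjusted p = 0.954, without the 6. Rpl35 gave -1.51, adjusted p = 0.00606, and -0.17, adjusted p = 0.95, without the 6. Dnajc4, of the DnaJ family, and Rpp21, a subunit of ribonuclease P, were among the 4 lower genes with the smallest adjusted p (-0.61, adjusted p = 0.00128 and -0.71, adjusted p = 0.00134), and did not pass without the 6 (-0.21, adjusted p = 0.709; -0.19, adjusted p = 0.784).

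Transcript length moved with the result across all genes. Of 680 tested genes whose longest protein-coding transcript is under 1 kb, 60.4% were lower and 3.09% higher, with a median log2 fold change of -0.58. Of 2090 genes with transcripts over 6 kb, 82.3% were higher and 0.957% lower, with a median of 0.47. Without the 6 libraries the medians of these classes were 0.058 and 0.11. Across 14824 genes of these libraries, Spearman's rho between length and log2 fold change was 0.62, given as a description since genes are not independent, and with GC content it was 0.17. The median transcript length was 926 bases for the ribosomal protein list and 9262 bases for the chromatin list, and the part of length in the list results was not tested beyond the fit with length and GC trends removed.

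**Figure D3:**
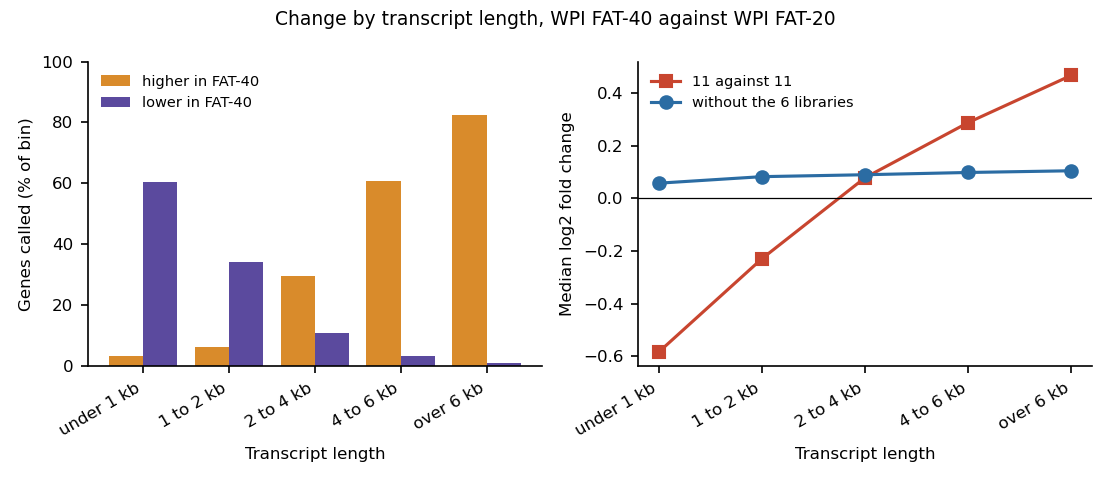
Left, percent of tested genes called higher or lower in WPI FAT-40 by length of the longest protein-coding transcript; right, the median log2 fold change of each class with all 22 libraries (squares) and without the 6 (circles). The medians run from -0.58 to 0.47 with all libraries and from 0.058 to 0.11 without the 6.

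Synaptic genes were mostly higher with all libraries. Of the presynaptic genes, 28 of 39 were higher and 3 lower (median 0.34, and 0.094 without the 6), against 38% higher among all genes. With each library centred, the list had 23 higher and 3 lower, against 27% higher and 22% lower among all genes in that fit. Syn2, a synapsin, had values of 3886 to 6320 (median 5627) in WPI FAT-20 and 6247 to 9076 (median 7234) in WPI FAT-40. It rose (log2 fold change 0.49 ± 0.10 (SE), adjusted p = 4.11e-04; 0.26, adjusted p = 0.452 without the 6). Erc2, an active zone scaffold, and Amph, which works in vesicle retrieval, rose too (0.50, adjusted p = 4.46e-04; 0.20, adjusted p = 6.06e-04). Of the postsynaptic scaffolds and receptors, 31 of 42 were higher and 2 lower (median 0.37, and 0.12 without the 6). The GABA-B receptor subunit Gabbr2 gave 0.72, adjusted p = 8.63e-04, and 0.22, adjusted p = 0.629, without the 6. The GABA-A subunit Gabrb1 gave 0.66, adjusted p = 6.55e-04, and 0.26, adjusted p = 0.6, without the 6. For the AMPA receptor subunit Gria1 it was 0.35, adjusted p = 8.35e-04, and 0.13, adjusted p = 0.678, without the 6.

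Nearly every voltage-gated channel and chromatin factor was higher with all libraries, against 38% of all genes. Of the channels, 30 of 32 were higher and 0 lower (median 0.52, and 0.055 without the 6). The sodium channel Scn2a had values of 1128 to 4222 (median 3224) in WPI FAT-20 and 3568 to 4801 (median 4259) in WPI FAT-40; its lowest value was in a library over 2%. Scn2a rose (log2 fold change 0.58 ± 0.13 (SE), adjusted p = 8.21e-04), as did the potassium channels Kcnd3 (0.61, adjusted p = 0.00194) and Kcnma1 (0.76, adjusted p = 0.00193), and without the 6 their differences were 0.18, 0.17 and 0.17, none of which passed. Of the chromatin and transcription cofactors, 31 of 32 were higher and 0 lower (median 0.61, and 0.036 without the 6). With each library centred the channels had 24 higher and 0 lower, and the chromatin list had 30 higher and 0 lower. Among all genes in that centred fit, 27% were higher and 22% lower. Setd2, a histone methyltransferase, gave 0.66, adjusted p = 0.00115, and 0.17, adjusted p = 0.764, without the 6. Ncor1, a corepressor, gave 0.40, adjusted p = 8.35e-04, and 0.12, adjusted p = 0.674, without the 6.

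**Figure D4:**
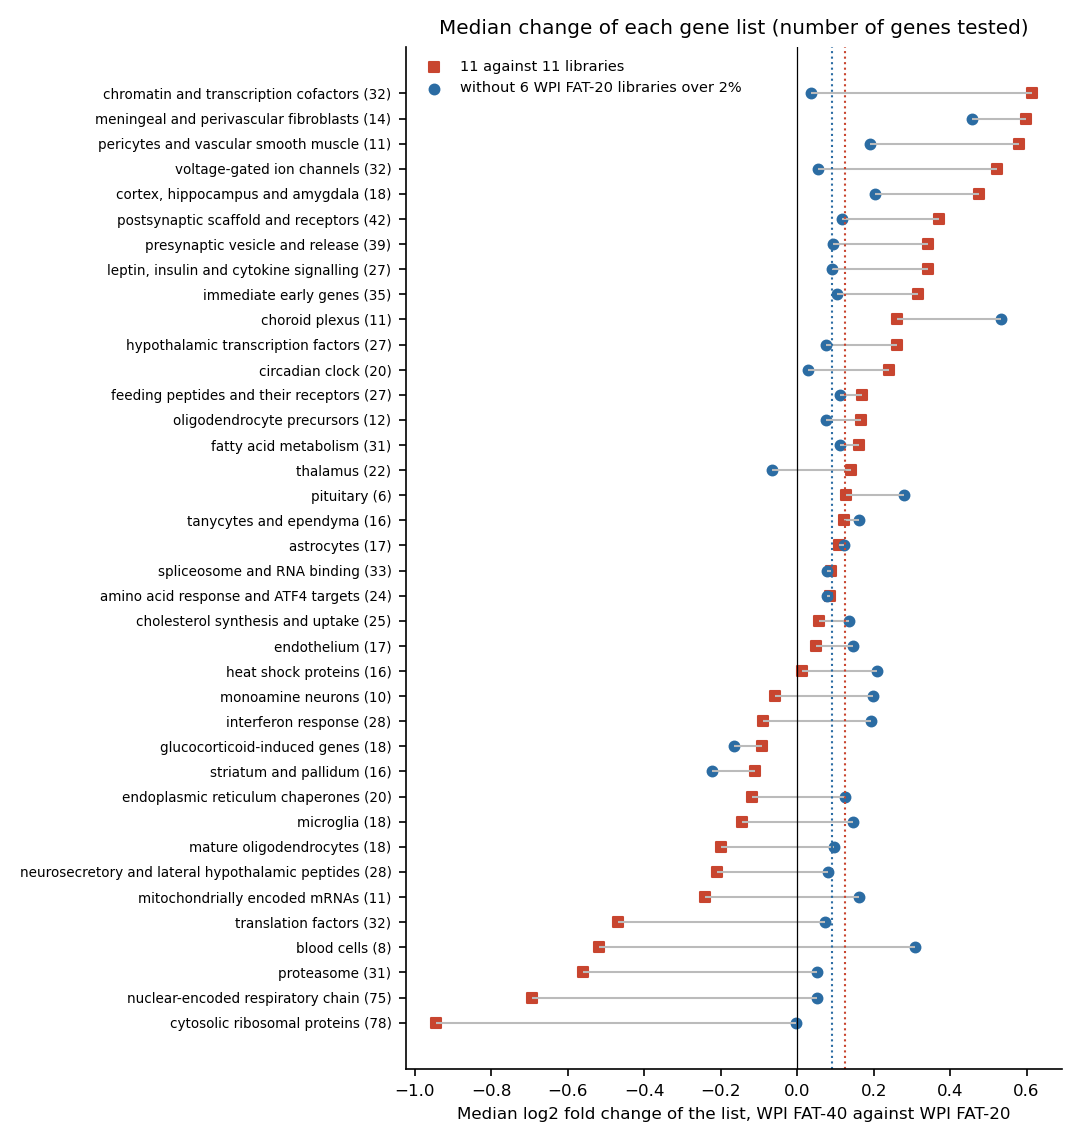
Median log2 fold change, WPI FAT-40 against WPI FAT-20, of 38 gene lists with 2 or more genes tested (number tested in brackets), with all 22 libraries (squares) and without the 6 WPI FAT-20 libraries over 2% (circles); dotted lines are the medians of all genes, 0.12 and 0.092. The lists run from -0.94 to 0.61 with all libraries, and the circles from -0.22 to 0.53.

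Immediate early genes, which neurons switch on within minutes of stimulation, were called in part. Of this list, 17 of 35 were higher and 1 lower (median 0.32, and 0.10 without the 6), which is 48.6% higher against 38% of all genes. Fos had values of 291 to 839 (median 404) in WPI FAT-20 and 423 to 902 (median 646) in WPI FAT-40, so the groups overlapped, with the 6 libraries at 291 to 442 and the other 5 at 399.7 to 839. Fos rose with all libraries (log2 fold change 0.53 ± 0.14 (SE), adjusted p = 0.00312; 0.15, adjusted p = 0.842 without the 6). The AP-1 gene Fosb gave 0.90, adjusted p = 8.48e-04, and 0.17, adjusted p = 0.844, without the 6. Fosl2, of the same family, gave 0.97, adjusted p = 0.00181, and 0.22, adjusted p = 0.856, without the 6. The kinase gene Sik1 gave 0.65, adjusted p = 0.00146, and 0.036, adjusted p = 0.964, without the 6. In the CAS comparison, Fos (0.67, adjusted p = 0.00922) and Jun (0.38, adjusted p = 0.0487) were higher at FAT-40 as well, and the steps were not shown to differ between proteins (adjusted p = 0.849 and 0.687). CAS FAT-20 also holds libraries over 2%. Without the 12 libraries over 2% in all diets, 0 of the 35 genes were called on CAS, while the list median there was 0.27, against 0.17 with all libraries.

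The peptides that set appetite did not pass the test with all 22 libraries on the deposited scale. Pomc, the precursor of the satiety peptide alpha-MSH, had values of 296 to 2268 (median 659) in WPI FAT-20 and 57.6 to 869.7 (median 614) in WPI FAT-40; the lowest was WPI FAT-40 replicate 11 and the highest WPI FAT-20 replicate 3. Its log2 fold change was -0.40 ± 0.34 (SE, adjusted p = 0.308), and -0.089 (adjusted p = 0.816) without replicate 11. Agrp, the antagonist of the melanocortin receptors, gave -0.49, adjusted p = 0.093, and -0.24 (adjusted p = 0.348) without replicate 11. Npy, its partner in the same neurons, gave -0.26, adjusted p = 0.0746. Cartpt, the gene of CART, gave -0.37, adjusted p = 0.061. Without the 6 libraries the 4 values were 0.11, -0.24, -0.029 and 0.093 in the same order, none called.

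Several receptors for feeding signals were called with all libraries. Of the whole feeding list, 12 of 27 were higher and 0 lower (median 0.17, and 0.11 without the 6), which is 44.4% higher against 38% of all genes, with a median near the 0.12 of all genes. With each library centred on its median, the list had 6 higher and 3 lower, so these counts depend on the scaling. In that centred fit, 27% of all genes were higher and 22% lower. Lepr, the leptin receptor, had values of 22.3 to 81.1 (median 65.7) in WPI FAT-20 and 57.3 to 119.9 (median 87.4) in WPI FAT-40. It rose (log2 fold change 0.55 ± 0.17 (SE), adjusted p = 0.00824; 0.41, adjusted p = 0.523 without the 6). Glp1r, the receptor of GLP-1, gave 0.67, adjusted p = 0.00236, and 0.25, adjusted p = 0.743, without the 6. Npy2r, a receptor of NPY and PYY, gave 0.47, adjusted p = 0.00128, and 0.30, adjusted p = 0.452, without the 6. Pam, the enzyme that amidates peptide hormones, gave 0.33, adjusted p = 9.44e-04, and 0.21, adjusted p = 0.445, without the 6. The melanocortin receptor Mc4r (-0.32, adjusted p = 0.221) and the ghrelin receptor Ghsr (0.17, adjusted p = 0.371) were not; these receptors and the peptides Hcrt, Pmch and Sst were added to the named genes after values had been seen. Downstream of these receptors, 21 of 27 genes of leptin, insulin and cytokine signalling were higher and 1 lower, with a median of 0.34 (0.091 without the 6). Stat3, the transcription factor activated by leptin, gave 0.53, adjusted p = 5.44e-04, and 0.14, adjusted p = 0.693, without the 6. Il6st, the shared receptor chain of the interleukin-6 family, gave 0.50, adjusted p = 8.45e-04, and 0.22, adjusted p = 0.56, without the 6. Socs3, the feedback inhibitor of that pathway, gave 0.79, adjusted p = 5.86e-04, and 0.59, adjusted p = 0.188, without the 6.

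Of the neurosecretory and lateral hypothalamic genes, 3 of 28 were higher and 3 lower (median -0.21, and 0.081 without the 6), against 38% higher and 14.6% lower among all genes. Trh, which drives the thyroid axis, had values of 765 to 3929 (median 1237) in WPI FAT-20 and 403 to 1255 (median 904) in WPI FAT-40, with the 6 libraries at 1237 to 3929. Trh was lower with all libraries (log2 fold change -0.67 ± 0.23 (SE), adjusted p = 0.0151) and its sign turned without the 6 (0.10, adjusted p = 0.941). Nts, neurotensin, behaved likewise (-0.97, adjusted p = 0.0118, and 0.0055, adjusted p = 0.999, without the 6). The granule protein gene Chgb had values of 2316 to 4497 (median 4309) in WPI FAT-20 and 4585 to 5996 (median 4919.9) in WPI FAT-40, with no overlap between the groups. It rose (0.46, adjusted p = 1.63e-04; 0.18, adjusted p = 0.457 without the 6). Vgf, a granule protein precursor, was also higher (0.53, adjusted p = 0.00457, and 0.053, adjusted p = 0.948, without the 6).

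Oxt, Avp, Crh, Hcrt, Pmch and Sst were not called with all libraries. Avp, vasopressin, had values of 2931 to 4498 (median 3438) in WPI FAT-20 and 1016 to 5967 (median 4981) in WPI FAT-40, and gave 0.30, adjusted p = 0.262; without replicate 11 of WPI FAT-40, the library low in several neurosecretory genes, it was higher at 0.51 (adjusted p = 0.0357), and without the 6 it was 0.32, adjusted p = 0.806. Oxt gave -0.31, adjusted p = 0.316, and 0.039 (adjusted p = 0.871) without that library. Crh gave -0.36, adjusted p = 0.0523, Hcrt, the orexin gene, 0.10, adjusted p = 0.503, Pmch, of melanin-concentrating hormone, -0.19, adjusted p = 0.327, and Sst, somatostatin, 0.018, adjusted p = 0.859.

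Markers of non-neuronal cells were called in both directions, as were all genes, with 38% higher and 14.6% lower. Of the mature oligodendrocyte genes, 0 of 18 were higher and 6 lower (median -0.20, and 0.10 without the 6). Mog, a myelin surface protein, gave -0.59, adjusted p = 0.0201, and 0.11, adjusted p = 0.927, without the 6. Mbp, a main protein of myelin, gave -0.30, adjusted p = 0.0414, and 0.00019, adjusted p = 0.9999, without the 6. The share of reads on the list was 1.03% to 1.61% in WPI FAT-20 and 0.891% to 1.244% in WPI FAT-40. Of the astrocyte genes, 8 of 17 were higher and 5 lower (median 0.11, and 0.12 without the 6); Gfap, the astrocyte filament, was not called (0.11, adjusted p = 0.517). Of the microglial genes, 4 of 18 were higher and 5 lower (median -0.14, and 0.15 without the 6), with the receptor Csf1r higher (0.34, adjusted p = 1.18e-04, and 0.15, adjusted p = 0.43, without the 6) and Aif1 not called (-0.43, adjusted p = 0.148). Of the blood cell genes, 0 of 8 were higher and 2 lower (median -0.52, and 0.31 without the 6). The haemoglobin gene Hbb-bs had values of 1316 to 19725 (median 4031) in WPI FAT-20 and 1249.7 to 5528 (median 2507) in WPI FAT-40 and gave -1.12, adjusted p = 0.0255, and 0.30, adjusted p = 0.896, without the 6.

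Several genes of connective tissue were among the largest increases with all libraries, while the endothelial list had a median below that of all genes. Over all genes 38% were higher and 14.6% lower, with a median of 0.12. Of the meningeal and perivascular fibroblast genes, 8 of 14 were higher and 0 lower (median 0.60, and 0.46 without the 6). Their summed values were 12161 to 26178 in WPI FAT-20 and 14867 to 35205 in WPI FAT-40. Fmod, a collagen-binding proteoglycan, gave 0.99, adjusted p = 0.00792, and 0.51, adjusted p = 0.719, without the 6. Slc13a4, a sulphate transporter, gave 1.04, adjusted p = 0.00792, and 0.55, adjusted p = 0.705, without the 6. Col1a2, a chain of collagen I, gave 0.86, adjusted p = 0.00299, and 0.22, adjusted p = 0.83, without the 6. Ddr2, a collagen receptor kinase, had values of 25.1 to 135 (median 96.4) in WPI FAT-20 and 116 to 262 (median 172) in WPI FAT-40. It rose (log2 fold change 1.17 ± 0.23 (SE), adjusted p = 4.90e-04; 0.55, adjusted p = 0.485 without the 6). Cyp26b1, which clears retinoic acid, gave 1.03, adjusted p = 0.00171, and 0.73, adjusted p = 0.449, without the 6. Piezo1, a mechanically gated channel, gave 0.98, adjusted p = 0.00181, and 0.15, adjusted p = 0.895, without the 6. Of the pericyte genes, 6 of 11 were higher and 0 lower (median 0.58, and 0.19 without the 6). Of the endothelial genes, 8 of 17 were higher and 4 lower (median 0.05, and 0.15 without the 6). Kdr, the VEGF receptor, had values of 68.2 to 238 (median 174) in WPI FAT-20 and 239.5 to 322 (median 282) in WPI FAT-40 with no overlap between the groups (0.70, adjusted p = 7.66e-04, and 0.43, adjusted p = 0.38, without the 6).

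Lists of other brain regions and cells are given beside 38% higher, 14.6% lower and a median of 0.12 over all genes. Of the thalamus genes, 3 of 22 were higher and 1 lower (median 0.14, and -0.065 without the 6). Of the striatum and pallidum genes, 1 of 16 were higher and 1 lower (median -0.11, and -0.22 without the 6). Of the cortex, hippocampus and amygdala genes, 8 of 18 were higher and 0 lower (median 0.48, and 0.20 without the 6). Camk2a gave 0.66, adjusted p = 0.00388, and 0.20, adjusted p = 0.818, without the 6. For the choroid plexus, 3 of 11 were higher and 0 lower (median 0.26, and 0.53 without the 6). For tanycytes and ependyma, 5 of 16 were higher and 3 lower (median 0.12, and 0.16 without the 6). For oligodendrocyte precursors, 6 of 12 were higher and 0 lower (median 0.17, and 0.074 without the 6). None of the 10 genes tested for monoamine neurons was higher and 2 were lower, and none of 6 pituitary genes was called. Of 27 hypothalamic transcription factors 8 were higher, and of 20 clock genes 10 were higher, with 0 lower in both lists.

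Lipid, amino acid and stress genes gave mixed counts, several of them near the 38% higher and 14.6% lower of all genes. Of the fatty acid metabolism genes, 15 of 31 were higher and 2 lower (median 0.16, and 0.11 without the 6). Fads1, the delta-5 desaturase, had values of 2878 to 4097 (median 3598) in WPI FAT-20 and 4010.5 to 4483 (median 4218) in WPI FAT-40, with the highest WPI FAT-20 library just above the lowest WPI FAT-40 library. It rose (log2 fold change 0.28 ± 0.052 (SE), adjusted p = 2.58e-04; 0.14, adjusted p = 0.34 without the 6). Fads2, the delta-6 desaturase, gave 0.30, adjusted p = 3.04e-04, and 0.12, adjusted p = 0.452, without the 6. Of the cholesterol genes, 6 of 25 were higher and 2 lower (median 0.057, and 0.14 without the 6). Of the amino acid response and ATF4 targets, 11 of 24 were higher and 3 lower (median 0.085, and 0.078 without the 6). Slc7a11, the cystine transporter, had values of 375 to 773 (median 699) in WPI FAT-20 and 809 to 1111 (median 891) in WPI FAT-40 with no overlap, and gave 0.53, adjusted p = 8.59e-04, and 0.42, adjusted p = 0.276, without the 6. Of the heat shock genes, 7 of 16 were higher and 2 lower (median 0.012, and 0.21 without the 6). Of the endoplasmic reticulum chaperones, 2 of 20 were higher and 3 lower (median -0.12, and 0.12 without the 6). Of the interferon response genes, 4 of 28 were higher and 2 lower (median -0.09, and 0.19 without the 6). Of the glucocorticoid-induced genes, 1 of 18 were higher and 4 lower (median -0.091, and -0.17 without the 6). Of the splicing genes, 12 of 33 were higher and 9 lower (median 0.088, and 0.079 without the 6). The list of nuclear-retained long noncoding RNAs had 1 gene in the table, which was higher.

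A set of intestinal transcripts was higher in WPI FAT-40 with and without the 6 libraries. Fabp1 was at 0 in 10 of 11 WPI FAT-20 libraries and at 11.7 in replicate 8, and ran from 8.11 to 221 (median 15.7) in WPI FAT-40. Its log2 fold change on the log2(value + 1) scale was 3.94 ± 0.44 (SE, adjusted p = 2.32e-09), and 3.54, adjusted p = 1.52e-04 without the 6. The highest WPI FAT-40 value was that of replicate 8, and 8 of 11 WPI FAT-40 libraries lay above WPI FAT-20 replicate 8. Without WPI FAT-40 replicate 8 the change was 3.59 (adjusted p = 5.22e-09). Fabp1 passed the filter on low values mainly through the FAT-40 diets. Its medians were 13.7 in CAS FAT-40 and 15.7 in WPI FAT-40, against 5.83 and 7.96 in CAS and WPI FAT-55. Its adjusted p-values therefore give no independent support, and the values are given as a description.

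The same libraries held other gut genes. Guca2b, the gut hormone uroguanylin, ran from 0 to 10.7 in WPI FAT-20 and from 11.9 to 239 in WPI FAT-40, with no overlap (4.14, adjusted p = 1.70e-09, and 3.75, adjusted p = 1.52e-04, without the 6; 3.79 without WPI FAT-40 replicate 8). Apoa1, an apolipoprotein of gut and liver, had values of 0 to 71.1 (median 5.61) in WPI FAT-20 and 62.9 to 1403 (median 86.8) in WPI FAT-40 (3.69, adjusted p = 2.05e-07, and 3.87, adjusted p = 1.52e-04, without the 6). Zg16, a goblet cell lectin, gave 4.25, adjusted p = 3.39e-09, and 3.92, adjusted p = 1.52e-04, without the 6. Defa24, a Paneth cell defensin, gave 4.37, adjusted p = 4.78e-09, and 4.12, adjusted p = 1.52e-04, without the 6. Reg3b, an antibacterial lectin, gave 3.19, adjusted p = 3.57e-06, and 3.45, adjusted p = 3.36e-04, without the 6. Fabp2, the intestinal fatty acid binding protein, Sis, the brush border sucrase, and Rbp2, the intestinal retinol binding protein, had log2 fold changes of 3.52, 2.55 and 2.90 without the 6, all called. Of 3 epithelial structural or surface genes, the keratin Krt20 gave 1.39, adjusted p = 0.00245, and 0.79, adjusted p = 0.523, without the 6. The brush border villin gene Vil1 gave 0.86, adjusted p = 0.00766, and 0.65, adjusted p = 0.559, without the 6. The gut galectin gene Lgals4 gave 1.36, adjusted p = 3.16e-04, and 0.79, adjusted p = 0.362, without the 6.

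An intestinal list of 30 genes, drawn up after these values had been seen, had 19 genes that passed the filter on low values. Several of these were near 0 in WPI FAT-20 and passed mainly through diets where they were higher. Among them were Fabp1, Fabp2, Guca2b, Zg16, Defa24 and Reg3b, through FAT-40, and Sis, through FAT-55. Their adjusted p-values therefore give no independent support, and no count of calls is given for the list. Over all 30 genes, filtered or not, its summed value was 61.0 to 391 (median 86.3) in WPI FAT-20 and 358 to 4904 (median 419) in WPI FAT-40. Replicate 8 held the highest sum in both groups, and without it WPI FAT-20 ended at 109 and WPI FAT-40 at 450, so the groups then did not overlap. In CAS FAT-20 the sum was 75.4 to 580 (median 103) and in CAS FAT-40 360 to 500 (median 391), with the 2 highest CAS FAT-20 values in replicates 6 and 7. In WPI FAT-55 it was 240.3 to 330.3. Alb, the albumin gene that marks hepatocytes, was at 0 in all 11 WPI FAT-20 and 8 of 11 WPI FAT-40 libraries and reached 3.94. Epcam, a surface marker of epithelia, did not pass the test (0.76, adjusted p = 0.128, and 0.97, adjusted p = 0.561, without the 6). Where in the handling of samples or reads these transcripts entered the libraries was not tested; jejunum of the same study was sequenced but is not used here.

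**Figure D5:**
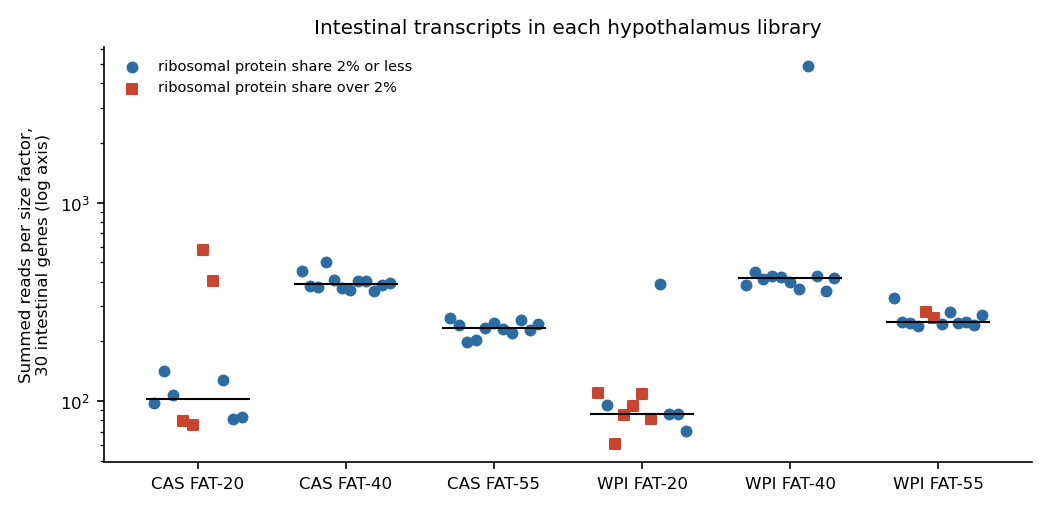
Summed reads per size factor (log axis) of 30 intestinal genes in each of the 67 hypothalamus libraries, by diet group, with group medians as lines; squares mark libraries over 2% ribosomal protein reads. WPI FAT-40 has a median of 419 and WPI FAT-20 of 86.3, and replicate 8 is the highest library in both.

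Of the genes called with all libraries, 21 were called again both without the 6 and without replicates 1 to 6. Some of these are on the intestinal list, which was drawn up after these values had been seen, so its members are not counted. Defa30, AY761184 and Gm14851, which lie on the same chromosome as Defa24 and whose reads may be shared among near-identical copies, and Plac8 are 4 more. The other 6 are not on that list. Osmr, the oncostatin M receptor, had values of 24.4 to 58.4 (median 46.2) in WPI FAT-20 and 50.1 to 93.4 (median 65.8) in WPI FAT-40, and 9 of 11 WPI FAT-40 libraries lay above every WPI FAT-20 library (0.68, adjusted p = 3.13e-04, and 0.69, adjusted p = 0.0386, without the 6). Exoc4, a subunit of the exocyst, had values of 648 to 926 (median 867) in WPI FAT-20 and 972 to 1108 (median 1040) in WPI FAT-40, with no overlap (0.35, adjusted p = 1.21e-05, and 0.27, adjusted p = 0.0289, without the 6). Lman2l, a lectin of the secretory pathway, gave 0.37, adjusted p = 1.92e-04, and 0.37, adjusted p = 0.0386, without the 6. Emp2, a tetraspan membrane protein, gave 0.21, adjusted p = 0.0398, and 0.45, adjusted p = 0.0386, without the 6. Fgf10, a growth factor made by tanycytes, gave 0.48, adjusted p = 0.00358, and 0.66, adjusted p = 0.0386, without the 6. Snrpa, a protein of the U1 splicing particle, gave 0.21, adjusted p = 0.00156, and 0.24, adjusted p = 0.0386, without the 6. These genes were chosen after their values were seen.

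With all 12 libraries over 2% left out and each library centred, the 18 higher genes were Apoa1, AY761184, Defa24, Defa30, Fabp1, Fabp2, Gm14851, Guca2b, Itln1, Krt8, Lct, Lyz1, Plac8, Rbp2, Reg3b, Sis, Slc5a1 and Zg16. Each of them is a gene of gut epithelium or its secretory cells or, for Krt8 and Plac8, of epithelia more widely, as general background. This set was chosen after its values were seen. Fabp1, Fabp2, Guca2b, Itln1, Reg3b, Zg16 and Defa24 had medians of 0 in WPI FAT-20. They passed the filter on low values mainly through the FAT-40 diets. The make-up of the set is thus a description and gives no independent support. The 1 lower gene was Fgfr3, a growth factor receptor of astrocytes, at -0.31 ± 0.062 (SE, adjusted p = 0.00426), which with all libraries was at 0.087, adjusted p = 0.486. None of the 6 genes from Osmr to Snrpa passed there; Osmr gave 0.61 (adjusted p = 0.0799) and Exoc4 0.18 (adjusted p = 0.294).

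The same step of fat on CAS gave 28 higher (0.189%) and 7 lower genes (0.0472%) with all libraries. At an unadjusted p under 0.05 it gave 1899 higher and 2322 lower. The edgeR quasi-likelihood test called 1606 genes there and DESeq2 1882. CAS FAT-20 also holds 4 libraries over 2%, and the ribosomal protein list had a median of -0.79 there with 0 of 78 called, against -0.94 on WPI. Rps19 was at -1.21 ± 0.45 (SE, adjusted p = 0.13) on CAS, and the 2 steps were not shown to differ (difference -0.32, adjusted p = 0.908). When the 6 WPI libraries were left out of the joint fit, the CAS comparison called 1347 higher (9.08%) and 1699 lower (11.5%). The CAS libraries and their estimates were unchanged (median of all genes 0.018 in both fits), and only the spread pooled over the diets differed. The 4 CAS FAT-20 libraries over 2% were still in that fit. Without all 12 libraries over 2%, the CAS comparison called 25 higher and 1 lower of 14830 genes. Fabp1 was higher on CAS as on WPI (2.995, adjusted p = 1.29e-05; difference between proteins 0.94, adjusted p = 0.605).

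The step of fat differed between WPI and CAS for 11 genes, all with the larger step on WPI (0.0742%), and 1496 and 57 genes passed an unadjusted p under 0.05 in the 2 directions. Aldh3a2, the dehydrogenase of fatty aldehydes, had values of 701 to 888 (median 803) in WPI FAT-20 and 892 to 1005 (median 933) in WPI FAT-40, with no overlap, against 865 to 1066 in CAS FAT-20 and 835 to 969.6 in CAS FAT-40. Its step was 0.23 on WPI and -0.085 on CAS (difference 0.32 ± 0.055, adjusted p = 0.00405). For Osmr the steps were 0.68 and -0.16 (difference 0.85 ± 0.19, adjusted p = 0.0444). The median difference of all genes was 0.093. Without the 6 libraries 12 genes passed (0.0809%), and without all 12 libraries over 2% 171 had the larger step on WPI (1.15%) and 2 on CAS (0.0135%). With TMM scaling, with each library centred on its median, and with edgeR or DESeq2 on the recovered reads, 0 genes differed between the proteins.

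At the next level of fat on WPI, Jun and Sis were also higher than at FAT-20, and Defa24 was not called (0.59, adjusted p = 0.339). Both comparisons use the WPI FAT-20 libraries, so they are set side by side and not tested against each other: FAT-55 against FAT-20 had 4373 higher (29.5%) and 866 lower genes (5.84%). Rps19 was at -0.95 (adjusted p = 0.0834), Jun at 0.37 (adjusted p = 0.00145) and Syn1 at 0.36 (adjusted p = 0.0615) at FAT-55, where 2 libraries were over 2%. FAT-55 against FAT-40, which shares the FAT-40 libraries, had 68 higher (0.459%) and 703 lower genes (4.74%), 5.2% in all. Defa24 ran from 0 to 4.02 in WPI FAT-55, below all 11 WPI FAT-40 libraries at 19.0 to 308 (-3.78, adjusted p = 1.47e-08). Sis, in contrast, ran from 13.9 to 25.7 in WPI FAT-55 and from 4.06 to 78.4 in WPI FAT-40.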

How the data were processed

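RNA of mouse hypothalamus was extracted with Tri-reagent and RNeasy columns and sequenced by Illumina protocols, per the labels' protocols. The submitters' processing notes name cutadapt, FastQC, Trim Galore 0.61, STAR, DESeq2 1.24.0 and GRCm38, without parameters. The deposited values are of the signal kind: the authors' reads per gene divided by 1 size factor per library (0.712 to 1.08), as the values show, since 100% of them became whole reads within 0.05 when multiplied back.

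Groups were taken from the treatment label. All 67 hypothalamus libraries entered 1 fit in limma 3.58.1 (R 4.3.3; limma-trend on log2(value + 1), 1 coefficient per diet) over the 14830 of 21883 genes that reached 10 in 10 or more libraries, with Benjamini-Hochberg adjustment at 0.05. Fold changes on this scale understate the change of low genes. Alternatives were edgeR 4.0.16 and DESeq2 1.42.0 on recovered reads, other scalings, filters, pseudocounts, stems and libraries left out. Checked on simulated data for this comparison, with 200 of 14830 genes changed, the fit recovered 30% of them at a fold of 1.25, 58% at 1.5, 88% at 2 and 94% at 4, with 6.90% of calls false. The simulated libraries were drawn independently, with no correlation within stems (0.34 in the data) and no set of libraries over 2%. These rates therefore do not give the recovery or the false share of the calls reported here.

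Named genes are those with the largest changes (mean of at least 100) and smallest adjusted p in each direction, up to 3 per list by adjusted p, a fixed set of markers and feeding genes, and those with the smallest p in the test of a difference between proteins. Genes named outside this rule are said to be chosen after their values were seen. The members and the 39 lists were chosen with earlier results of these data known, and the intestinal and hepatocyte lists were added after seeing values. Of the hepatocyte list 4 genes were tested, 0 higher and 1 lower, against 38% higher and 14.6% lower among all genes. One of them, Ttr, is also on the choroid plexus list, so this count does not measure hepatocyte RNA. Promoter windows are from RefSeq.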

Additional observations from a re-analysis of the deposited data

Results flagged for a closer look

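For 7 of the 11 genes whose step of fat differed between WPI and CAS in the test of the difference, the values in both proteins are given here. Aldh3a2, fatty aldehyde dehydrogenase, had a step of 0.23 on WPI and -0.085 on CAS, a difference of 0.32 ± 0.055 (SE, limma adjusted p = 0.00405; 0.284 and 0.0163 without the 12 libraries over 2%). Cap1, an actin regulator, had a step of 0.21 on WPI and -0.12 on CAS, a difference of 0.33 ± 0.07 (SE, limma adjusted p = 0.0298; 0.241 and 0.045 without the 12 libraries over 2%). Cpsf2, a subunit of the mRNA cleavage complex, had a step of 0.21 on WPI and -0.19 on CAS, a difference of 0.40 ± 0.074 (SE, limma adjusted p = 0.00823; 0.401 and 0.0163 without the 12 libraries over 2%). Fam155a, a subunit of the sodium leak channel complex, had a step of 0.31 on WPI and -0.12 on CAS, a difference of 0.43 ± 0.091 (SE, limma adjusted p = 0.0298; 0.218 and 0.0538 without the 12 libraries over 2%). Ndrg3, of the NDRG family, had a step of 0.15 on WPI and -0.078 on CAS, a difference of 0.22 ± 0.047 (SE, limma adjusted p = 0.0298; 0.198 and 0.0281 without the 12 libraries over 2%). Osmr, the oncostatin M receptor, had a step of 0.68 on WPI and -0.16 on CAS, a difference of 0.85 ± 0.19 (SE, limma adjusted p = 0.0444; 0.996 and 0.0151 without the 12 libraries over 2%). Pias1, a SUMO ligase, had a step of 0.35 on WPI and -0.033 on CAS, a difference of 0.38 ± 0.078 (SE, limma adjusted p = 0.0298; 0.286 and 0.0338 without the 12 libraries over 2%). All 7 differences have the larger value on WPI, and none of the 11 passed with each library centred on its median, with TMM, edgeR or DESeq2. The other 4, listed for completeness after their values were seen, were Npepps, Cs, Tmcc3 and Slc24a3.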

How the results depend on the processing

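Counts of called genes that moved by over 1.5 times are given by setting, against 7791 for FAT-40 on WPI, 35 on CAS, 11 for the difference between proteins, 771 for FAT-55 against FAT-40 and 5239 for FAT-55 against FAT-20. With the edgeR quasi-likelihood test, the counts were 1606 for FAT-40 on CAS, 0 for the difference between proteins and 3093 for FAT-55 against FAT-20. With DESeq2, the counts were 1882 for FAT-40 on CAS and 0 for the difference between proteins. With a pseudocount of 10, the counts were 9 for FAT-40 on CAS. With a filter of 50 in 10 libraries, the counts were 1 for FAT-40 on CAS. With TMM, the counts were 0 for the difference between proteins and 3437 for FAT-55 against FAT-20. With centring on the median, the counts were 0 for the difference between proteins. With a random effect for stem, the counts were 3247 for FAT-40 on WPI, 8 for FAT-40 on CAS, 0 for the difference between proteins, 367 for FAT-55 against FAT-40 and 1567 for FAT-55 against FAT-20. With means per stem, the counts were 25 for FAT-40 on WPI, 11 for FAT-40 on CAS, 0 for the difference between proteins, 316 for FAT-55 against FAT-40 and 461 for FAT-55 against FAT-20. With sample weights, the counts were 1398 for FAT-40 on WPI, 201 for the difference between proteins and 2113 for FAT-55 against FAT-40. With only the groups compared, the counts were 17 for FAT-40 on CAS, 0 for the difference between proteins and 1685 for FAT-55 against FAT-20. With GC and length trends removed, the counts were 3603 for FAT-40 on WPI, 366 for FAT-40 on CAS, 0 for the difference between proteins, 1320 for FAT-55 against FAT-40 and 2390 for FAT-55 against FAT-20. With a thalamus score as covariate, the counts were 7 for the difference between proteins and 3363 for FAT-55 against FAT-20. With an oligodendrocyte score as covariate, the counts were 21 for FAT-40 on CAS and 612 for the difference between proteins. Without the 6 libraries over 2%, they were 30 for FAT-40 on WPI, 3046 for FAT-40 on CAS and 921 for FAT-55 against FAT-20. Without the 12 libraries over 2%, they were 498 for FAT-40 on WPI, 173 for the difference between proteins, 2043 for FAT-55 against FAT-40 and 2629 for FAT-55 against FAT-20. Without the 12 and each library centred, they were 19 for FAT-40 on WPI, 0 for the difference between proteins, 2324 for FAT-55 against FAT-40 and 1093 for FAT-55 against FAT-20. Without WPI FAT-20 replicates 1 to 6, they were 38 for FAT-40 on WPI, 3028 for FAT-40 on CAS, 20 for the difference between proteins and 992 for FAT-55 against FAT-20. With 1 stem left out they were 4687 for FAT-40 on WPI and 3109 for FAT-55 against FAT-20 (without WPI FAT-20 replicates 1, 2, 3), 1084 for FAT-40 on WPI, 2 for the difference between proteins and 1654 for FAT-55 against FAT-20 (without WPI FAT-20 replicates 4, 5, 6), 53 for the difference between proteins (without WPI FAT-20 replicates 7, 8), 364 for the difference between proteins and 8468 for FAT-55 against FAT-20 (without WPI FAT-20 replicates 9, 10, 11), 4 for the difference between proteins (without WPI FAT-40 replicates 1, 2, 3), 7 for the difference between proteins (without WPI FAT-40 replicates 4, 5), 7 for the difference between proteins (without WPI FAT-40 replicates 6, 7, 8), 1 for the difference between proteins (without WPI FAT-40 replicates 9, 10, 11). Leaving out each of the 22 WPI FAT-20 and WPI FAT-40 libraries in turn gave 5532 to 8483 for FAT-40 on WPI (lowest without WPI FAT-20 replicate 3), 30 to 50 on CAS, 2 to 28 for the difference (2 without WPI FAT-20 replicate 6, 3 without replicate 4, 20 without replicate 2 and 28 without replicate 7), 705 to 876 for FAT-55 against FAT-40 and 3797 to 6060 for FAT-55 against FAT-20. No CAS or FAT-55 library was left out in this way, so the range on CAS says nothing of its stability. Of genes called with all libraries or under the alternative, the log2 fold changes that turned sign were with GC and length trends removed Cpsf2 -0.010, Csf1r -0.048, Fgfr3 -0.282, Ncor1 -0.105, Pmch 0.524, and without the 12 Fgfr3 -0.227, Hbb-bs 0.304, Mbp 0.00019, Mog 0.107, Nts 0.0055, Tmsb4x 0.038, Trh 0.096, and without the 12 and centred Fgfr3 -0.312, Hbb-bs 0.219, Mog 0.022, Sik1 -0.050, Trh 0.010, Vgf -0.032, and without the 6 Hbb-bs 0.304, Mbp 0.00019, Mog 0.107, Nts 0.0055, Tmsb4x 0.038, Trh 0.096, and without replicates 1 to 6 Hbb-bs 0.222, Mog 0.041, and with sample weights Trh 0.0088. Of the 16 named genes not called with all libraries, 7 also changed sign without the 6, 8 without replicates 1 to 6 and 7 with sample weights. The cause was not tested. Of 92 genes named above and called with all libraries, 89 stayed called with edgeR, 87 with DESeq2, 90 with TMM and 89 centred. With a random effect for stem 80 did, with GC and length trends removed 68, with sample weights 57, without the 12 36, without the 6 25, without replicates 1 to 6 21, and with means per stem or without the 12 and centred 18. Among the 16 named genes not called with all libraries, 3 became called with edgeR, 4 with DESeq2, 3 with TMM and 3 centred.

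No paired analysis was possible because no mouse was in both groups and the replicate numbers follow accession order. Total reads differed little between libraries (14.4 to 16.1 M). Genes at a few reads, among them most intestinal genes, have fold changes that depend on the pseudocount. Alternatives that leave out libraries by ribosomal share, or WPI FAT-20 replicates 1 to 6, were chosen after seeing the data.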
